A study of Mus musculus with 6 samples.

Results

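The Ly6 surface proteins described here are the products of 4 mouse genes, Ly6c1, Ly6c2, Ly6a and Ly6e, measured as transcripts in CD8+ T cells after inhibition or activation of the proteasome. The members were chosen by gene symbol, and the family was picked from results in which the rise of Ly6c1 with the activator was already known, so the values with the activator are given as a description without a test. A probe counted if its symbol in the array annotation, old or current, was one of the 4. This held for 3 of the 45281 probes on the array: 1 probe of Ly6c1 and 2 of Ly6e, so that 2 of the 4 genes could be described. No probe was listed here under Ly6c2 or Ly6a, and those genes were not analysed here.

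The cells came from spleens of C57BL/6 mice aged 6 weeks and were isolated with a kit for CD8+ T cells. They were pre-treated with the vehicle DMSO, with 0.5 µM epoxomicin, which blocks the proteolytic sites of the proteasome, or, as the opposite treatment, with E9 at 1 µM, a compound with a code name that the labels call a proteasome activator. All groups were then kept for 3 days in IL-2 medium on plate-bound anti-CD3 and anti-CD28 (5 µg/ml), so that the vehicle cells were activated too. Total RNA was hybridised to Illumina bead arrays, 2 per group and 6 in all; the design text calls the pairs biological duplicates of CD8+CD44+ cells, and nothing says whether animals were pooled or which arrays share one.

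Ly6 proteins are small, disulfide-rich molecules held in the outer leaflet of the plasma membrane by a glycosylphosphatidylinositol (GPI) anchor. In mice Ly6C, encoded by Ly6c1 and Ly6c2, is a common marker of memory and effector CD8+ T cells and of inflammatory monocytes, Ly6a encodes Sca-1, a marker of stem cells and of activated lymphocytes, and Ly6e encodes thymic shared antigen 1, also called Sca-2. Several genes of the family are known to be induced by interferons.

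The measured genes lie in one family cluster on chromosome 15, and Ly6c1 and Ly6c2 are close copies of each other, which is why the sequences of their start regions are shown here. RefSeq windows of 300 bases, from 250 before to 50 after a transcript start, were given for 2 of the 4 genes, with 4 windows in all. The most alike pair (GRCm38.p6, both on the minus strand, chr15:75048614-75048913 for Ly6c1 and chr15:75111888-75112187 for Ly6c2) was identical at 158 of 177 aligned bases, or 89.3%. Capitals mark the longest stretch that both share, 37 bases.
Ly6c1: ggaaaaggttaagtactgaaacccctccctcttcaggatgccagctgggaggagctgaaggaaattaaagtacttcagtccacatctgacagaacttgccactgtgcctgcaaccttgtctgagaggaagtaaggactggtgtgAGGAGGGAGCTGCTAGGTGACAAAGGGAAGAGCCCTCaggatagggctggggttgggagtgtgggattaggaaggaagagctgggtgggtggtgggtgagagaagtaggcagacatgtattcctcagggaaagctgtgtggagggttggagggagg
Ly6c2: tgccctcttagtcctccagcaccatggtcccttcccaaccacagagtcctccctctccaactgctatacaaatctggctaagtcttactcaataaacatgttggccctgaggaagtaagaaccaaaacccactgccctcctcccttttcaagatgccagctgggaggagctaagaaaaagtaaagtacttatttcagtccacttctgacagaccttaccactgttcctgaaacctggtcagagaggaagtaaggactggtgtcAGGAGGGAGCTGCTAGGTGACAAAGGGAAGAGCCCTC

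Probe sequences were not used here, so how much Ly6c2 transcript the Ly6c1 probe also detects was not tested, and its signal is best read as that of Ly6c1 and possibly its copy. On both strands of the 4 windows, neither the core of the interferon-stimulated response element nor the gamma-activated site (TTCNNNGAA) nor the AP-1 motif (TGANTCA) was found. These motifs were held by 3.45%, 8.33% and 7.79% of 32544 distinct RefSeq windows. The RUNX motif (TGTGGT), held by 16.7% of windows, was found in both Ly6c2 windows on the opposite strand and in neither Ly6c1 window. The Ly6c2 windows overlap, and the match is the same site in both. A match is only a match of letters, and its absence says nothing about the factor.

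The arrays of a group were alike: over the 13393 genes tested, Pearson's r between the 2 arrays was 0.997 (DMSO), 0.998 (epoxomicin) and 0.996 (E9), taken over genes that are not independent of each other. Every array carried the same set of intensities because the authors had normalized them by quantiles, so a change in total RNA cannot be seen. Of 12 CD8 T cell markers listed 9 had a probe, and these 9 were above background, among them the co-receptor gene Cd8b1 at 4827 with DMSO, 4905 with epoxomicin and 7552 with E9. The other co-receptor gene, Cd8a, was barely over the limit, with probe means of 37.7, 38.1 and 42.5.

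Ly6c1 was bright in every group and far brighter with E9. Its probe (ILMN_1254927) read 590.3 and 671.2 with DMSO, 694.2 and 748.8 with epoxomicin, and 3722.4 and 3754.8 with E9. Both E9 arrays lay far above the other 4, and both epoxomicin arrays lay slightly above both DMSO arrays. In group means this was 631 ± 57.2 with DMSO, 722 ± 38.6 with epoxomicin and 3739 ± 22.9 with E9 (SD, n = 2), an intensity ratio of 5.93 for E9 over DMSO and 5.18 for E9 over epoxomicin.

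The brighter Ly6e probe (ILMN_2776278) read 963.7 and 829.9 with DMSO, 977.1 and 916.3 with epoxomicin, and 2552.1 and 2493.3 with E9. The DMSO and epoxomicin arrays overlapped, while both E9 arrays stood above all of them. The dimmer probe (ILMN_2984828) read 292.7 and 274 with DMSO, 315.3 and 325.4 with epoxomicin, and 954.8 and 898.7 with E9. It showed the same order without overlap, so both probes placed E9 highest. The mean of the brighter probe was 897 ± 94.6 with DMSO, 947 ± 43 with epoxomicin and 2523 ± 41.6 with E9 (SD, n = 2), an intensity ratio of 2.81 for E9 over DMSO. For the dimmer probe the means were 283 ± 13.2, 320 ± 7.14 and 927 ± 39.7 (SD, n = 2), an intensity ratio of 3.27.

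**Figure D1:**
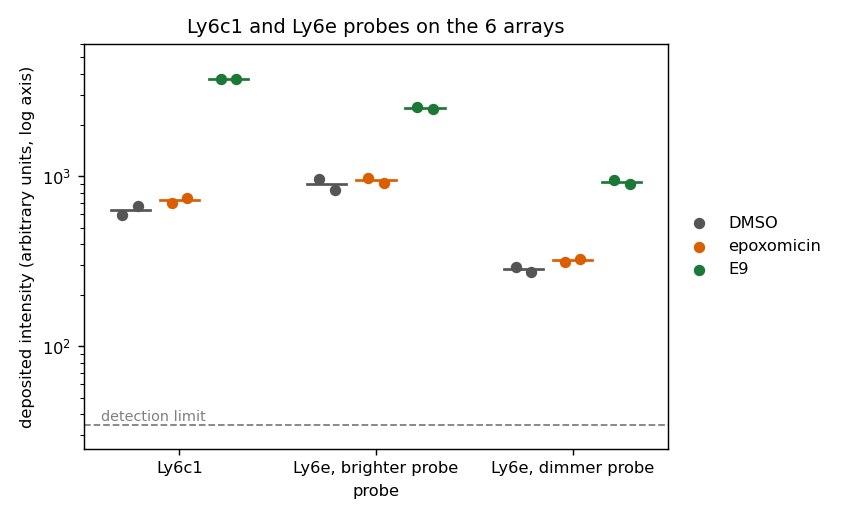
Deposited intensity (arbitrary units, log axis) of the Ly6c1 probe and the 2 Ly6e probes on each of the 6 arrays; points are arrays, coloured by group, short lines are group means of 2 arrays, and the dashed line is the detection limit of 34.6. The E9 arrays lie above the DMSO and epoxomicin arrays for all 3 probes, for Ly6c1 at 3722.4 and 3754.8 against 590.3 to 748.8.

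The comparison of epoxomicin with DMSO asks whether inhibiting the proteasome before activation changed these transcripts. Neither gene passed the test. On the log2 scale after background correction, Ly6c1 differed by 0.19 ± 0.078 (SE, 2 arrays per group; limma adjusted p = 0.397), with a 95% interval of 0.014 to 0.36 before adjustment. Ly6e, read from its brighter probe, differed by 0.079 ± 0.081 (SE; limma adjusted p = 0.829), with an interval of -0.10 to 0.26. This interval allows a change of either sign, and without DMSO replicate 2 the estimate for Ly6e was -0.026. Among all tested probes the dimmer Ly6e probe differed by 0.16 ± 0.066 (SE; limma adjusted p = 0.436).

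In this comparison 2 of the 3 member probes, that of Ly6c1 and the dimmer of Ly6e, had both epoxomicin arrays above both DMSO arrays. Of all tested probes 21.1% did so, and among genes 0.717% rose and 0.553% fell at an adjusted p under 0.05. In rank, 4.49% of tested genes had a larger log2 difference than Ly6c1 and 20.1% a larger one than Ly6e.

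Whether the activator changed them is the question of the next contrast, E9 against DMSO, in which the members' values are described without a test. The log2 difference of Ly6c1 was 2.52 ± 0.078 (SE), the rank 3 from the top among 13393 genes. That of Ly6e was 1.47 ± 0.081 (SE) by the brighter probe, rank 37, and 1.62 ± 0.066 (SE) by the dimmer. All 3 member probes had both E9 arrays above both DMSO arrays, as did 24.2% of all tested probes. With single arrays left out the values ranged from 2.43 to 2.61 for Ly6c1 and from 1.36 to 1.57 for Ly6e.

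**Figure D2:**
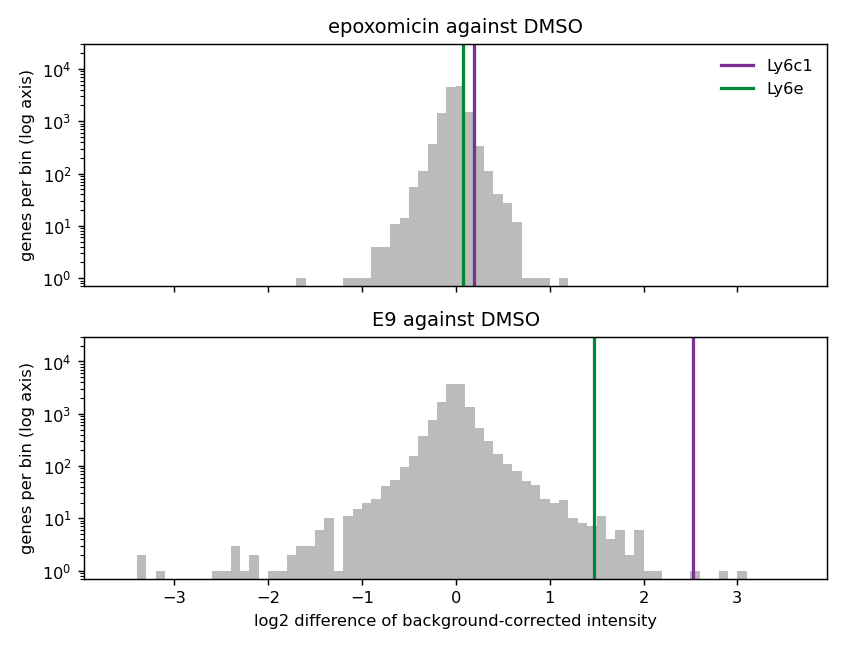
Histograms of the log2 difference of background-corrected intensity (x axis) over the 13393 tested genes, as genes per bin (y axis, log scale), for epoxomicin against DMSO (top) and E9 against DMSO (bottom); vertical lines mark Ly6c1 and Ly6e. With epoxomicin the lines stand near 0, at 0.19 and 0.079, and with E9 they stand in the upper tail, at 2.52 and 1.47.

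Set directly against epoxomicin, E9 gave a log2 difference of 2.33 ± 0.078 (SE) for Ly6c1 and 1.39 ± 0.081 (SE) for Ly6e. These values use the same E9 arrays and are also descriptions. All 3 member probes were higher on both E9 arrays than on both epoxomicin arrays, against 22.6% of tested probes. The order of both genes was DMSO, epoxomicin, E9. The first 2 neighbours did not pass the adjusted threshold for either gene; their arrays overlapped for the brighter Ly6e probe and did not for Ly6c1.

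The probes of Ly6e can be checked against each other array by array. The brighter probe read 3.29 and 3.03 times the dimmer one with DMSO, 3.10 and 2.82 times with epoxomicin, and 2.67 and 2.77 times with E9. The ratio was lowest on the E9 arrays, below both DMSO arrays, so the dimmer probe moved slightly more in these uncorrected intensities, which still hold background.

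Genes whose profiles over the 6 arrays were most like the members' were found by the Euclidean distance between mean-centred log2 values. Nearest to Ly6c1 were Cox6a2, a subunit gene of respiratory complex IV best known from muscle (distance 0.62, r = 0.995 over 6 arrays), Lmna, which encodes lamins A and C (0.62, r = 0.995), and Klra13-ps, a pseudogene of the Ly49 receptors (0.70, r = 0.998). The median distance of all genes to Ly6c1 was 2.83. Their log2 differences for E9 against DMSO were 1.94, 2.89 and 1.95, on either side of that of Ly6c1. Their DMSO means were 36.25, 41.4 and 38.7, near the detection limit of 34.6, where the background correction shrinks differences. The sizes are therefore not directly comparable with that of Ly6c1.

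Nearest to Ly6e were H2-DMa, a chain of the peptide exchanger of MHC class II (distance 0.11, r = 0.998 over 6 arrays), F2rl2, a receptor of the thrombin receptor family (0.12, r = 0.999), and Nt5e, which encodes CD73, an enzyme that is itself GPI-anchored (0.15, r = 0.996). The median distance of all genes to Ly6e was 1.68. F2rl2 had a DMSO mean of 38.25, also near the detection limit. H2-DMa read 375.2 and 338.2 with DMSO, 421.5 and 368.7 with epoxomicin and 1063 and 1072.5 with E9. All 6 arrays share one normalization and 3 groups, so distances and r are given as a description.

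The rest of the Ly6/uPAR family, which holds further GPI-anchored members and some secreted ones, was mostly near background. Of 40 listed genes 35 had a probe, and 16 of these were above the detection limit of 34.6 on at least 2 arrays, a limit set from the spread of the dim values. Of the 16, none passed with epoxomicin (0 at an unadjusted p under 0.05), and 1 rose and none fell with E9, where 7.59% of all genes rose and 7.66% fell. The family's median log2 difference with E9 was 0.0028, against -0.0060 over all genes. The other 19 genes with a probe were not tested, and 12 of them were below the limit on every array.

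The gene that rose was Ly6f, a relative of the Ly6C genes in the same cluster. Its probe read 27.9 and 29.7 with DMSO, 33.4 and 32.6 with epoxomicin, and 40.6 and 45.3 with E9. On this probe only the E9 arrays were above the detection limit, so Ly6f entered the test only through the group in which it was high. Its call sets E9 signal against background readings, and no p is given for it. Ly6f was at least 1.24-fold higher with E9 than with DMSO, a bound from intensities against the lowest signal above the limit. A further Ly6f probe did not show the rise: it read 29.6 on both E9 arrays and was above the limit on 1 array, epoxomicin replicate 2, at 35.6. With the filter on all 6 arrays or without DMSO replicate 1 no gene of the family passed, and without E9 replicate 1 the count was 2. How much transcript of the brighter Ly6C genes the Ly6f probe detects was not tested.

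Ly6k, a family member best known from testis, read 75 and 76.7 with DMSO, 70.3 and 71.2 with epoxomicin and 83.8 and 111.8 with E9, a log2 difference of 0.27 ± 0.098 (SE; limma adjusted p = 0.10) for E9 against DMSO. Its E9 arrays were both higher than the others and far apart. Plaur, the urokinase receptor, stood at 40.8 with DMSO and 39.3 with E9 (-0.032). None of the other 13 passed, and 8 of them were above the limit on at least 1 array of each of these groups: Ly6g5b (0.074), Ly6g5c (0.13), Lypd4 (0.026), Lypd5 (-0.048), Lypd6b (-0.17), Psca (-0.087), Pinlyp (-0.021) and Spaca4 (0.030), log2 differences for E9 against DMSO. Group means of the 13 lay between 30.35 and 45.25, close to the limit. Ly6d, Lypd6 and Cd59a were below it on both E9 arrays and on 1 of 2 DMSO arrays, and Lypd8 on both DMSO arrays and 1 of 2 E9 arrays, so no fold is given. Gml2 was below it on both DMSO arrays and barely above it on both E9 arrays (means 30.35 and 35, limma adjusted p = 0.298), so no fold is given for it either.

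In chromosome order, the 4 members and the 6 nearest protein-coding genes on each side made 17 genes, a window chosen after seeing the data. Ly6e and Ly6c1 were separated by Ly6i, which was below the limit on all 6 arrays (25.8 to 33.1), and Ly6a, with no probe listed. Next to Ly6e lay Ly6m, whose 2 probes were also below the limit on all 6 arrays (26.6 to 33.3). Of 13 non-members 4 were tested, Ly6k, Gml2, Cyp11b2 and Ly6f, and 1 of them, Ly6f, passed with E9, on a probe above the limit on the E9 arrays alone. Cyp11b2, the aldosterone synthase gene, stood at 38.9 with DMSO and 40 with E9 (0.024).

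**Figure D3:**
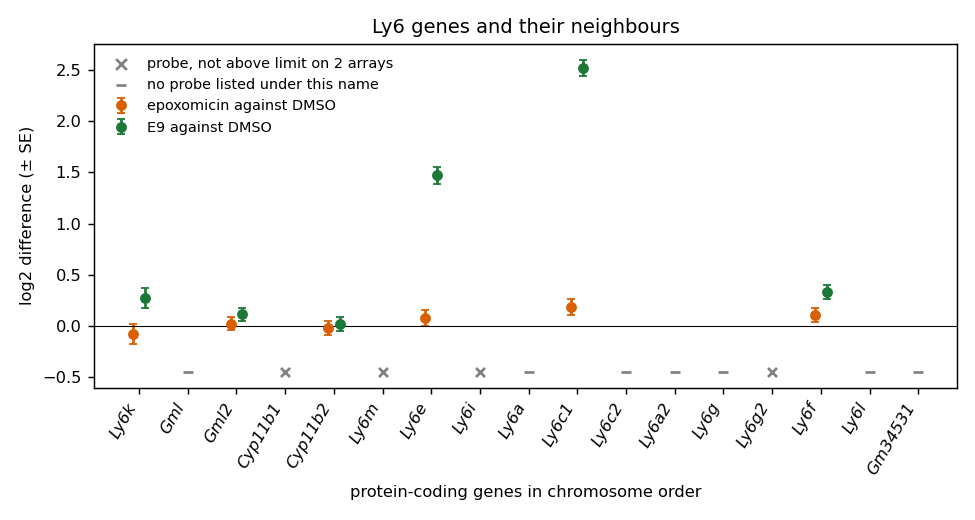
Log2 difference (y axis, ± SE) for epoxomicin against DMSO (orange) and E9 against DMSO (green) of the Ly6 genes and their protein-coding neighbours, in chromosome order (x axis, not to scale). Crosses mark genes whose probes were not above the limit on 2 arrays and dashes genes with no probe listed under that name. Ly6e stands at 1.47 and Ly6c1 at 2.52 for E9. The points of Ly6f and Gml2 are fitted values against DMSO arrays below the limit and show no measured fold.

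Genes that respond to interferon, as several genes of the Ly6 family are known to, rose with E9 in the majority of the cases tested. The part of interferon in the Ly6 values was not tested. Of the 28 interferon-response genes tested 17 rose and none fell, where 7.59% of all genes rose and 7.66% fell. Their median log2 difference was 0.33 against -0.0060 over all genes. A further 6 genes of the list, Ifit1, Iigp1, Mx1, Oas1a, Rsad2 and Xaf1, were not above the limit on 2 arrays and were not tested. Among the 17 that rose, Irf7, Oas3, Oasl2, Oasl1 and Isg20 had DMSO means below the limit of 34.6 (32.15 to 34.25). Their calls set E9 signal against readings near background, so the size of their rise was not measured. Oasl2 entered the test only through the E9 arrays, the group in which it was high. Ifi27, an interferon-induced membrane protein gene, rose by 1.33 ± 0.062 (SE; limma adjusted p = 1.31e-06), Ifit3, an antiviral effector, by 1.34, Usp18, which removes ISG15, by 1.05, and Oasl2 by at least 1.78-fold, since it was above the limit with E9 alone. With epoxomicin 12 of the 28 were at an unadjusted p under 0.05, all of them lower, and the median was -0.11. The share of all genes at the unadjusted threshold was not counted. At the adjusted threshold 1 of the 28 fell, the GTPase gene Irgm2 (-0.40 ± 0.076 (SE), limma adjusted p = 0.0417). That call was lost with no background correction, an offset of 16, the filter on all 6 arrays or the trend and robust settings, and without any 1 of the DMSO or epoxomicin arrays.

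GPI-anchored proteins of lymphocytes moved in both directions with E9. Of 15 tested 5 rose and 3 fell, where 7.59% of all genes rose and 7.66% fell. Their median was 0.12, against -0.0060 over all genes. Nt5e rose by 1.53 ± 0.067 (SE; limma adjusted p = 8.69e-07), from 168.8 and 157.4 with DMSO to 503.8 and 533.5 with E9. Cd52, a small lymphocyte glycoprotein, rose by 0.54, while Cd160, a co-signalling receptor, and Prnp, the prion protein gene, fell by 0.76 and 0.63. With epoxomicin 5 of the 15 were at an unadjusted p under 0.05. At the adjusted threshold 0.717% of all genes rose and 0.553% fell. Of the 15, 2 rose, Cd160 (0.76) and Sema7a (0.55), a semaphorin, and none fell. The count was 1 with the mean of a gene's probes and 0 or 1 when any 1 DMSO or epoxomicin array was left out.

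The genes that build and attach the GPI anchor rose in a minority of cases with E9, where 7.59% of all genes rose and 7.66% fell. Of 26 tested 5 rose and none fell with E9, with a median of 0.037: Pigx, a subunit of a mannosyltransferase, by 0.43, Tmed10, a cargo receptor of the early secretory pathway, by 0.34, Dpm3, a subunit of dolichol-phosphate-mannose synthase, by 0.34, and Mppe1, which trims the anchor, by 0.33 were the 4 with the smallest adjusted p. The count was 2 without DMSO replicate 1, DMSO replicate 2 or E9 replicate 2. With epoxomicin none of the 26 passed (3 at an unadjusted p under 0.05), the smallest p belonging to Pigx (0.22; limma adjusted p = 0.188) and Pgap2 (0.30; limma adjusted p = 0.191).

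**Figure D4:**
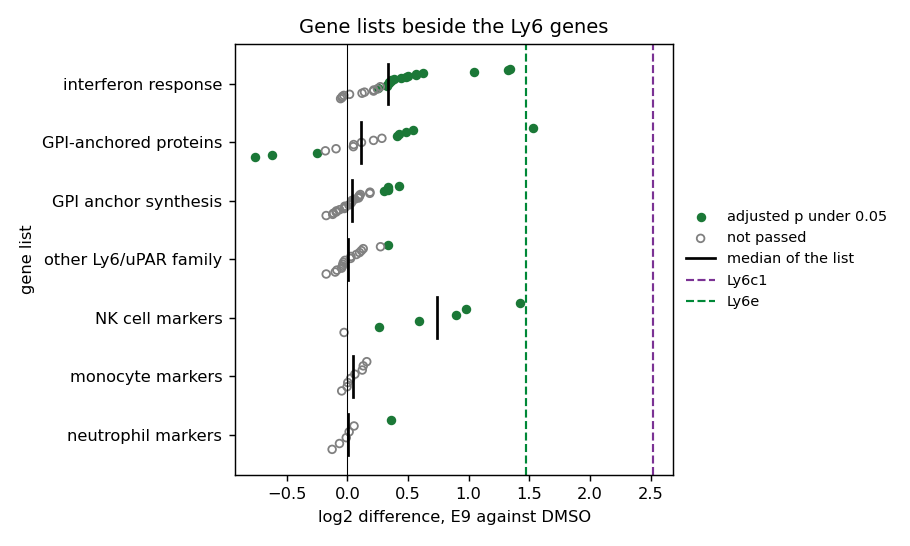
Log2 difference for E9 against DMSO (x axis) of every tested gene of 7 lists (rows); filled points passed at an adjusted p under 0.05, open points did not, black bars are list medians and dashed lines mark Ly6c1 (2.52) and Ly6e (1.47). The interferon-response list has its median at 0.33 and the rest of the Ly6/uPAR family at 0.0028. The filled points of Ly6f, S100a8 and Oasl2 set E9 signal against DMSO readings below the limit and show no measured fold.

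Markers of T cell states were measured beside the Ly6 genes, since Ly6C is used as a memory marker. Of all genes 7.59% rose and 7.66% fell with E9, and 0.717% rose and 0.553% fell with epoxomicin. Of 12 memory and effector surface markers 5 rose and 1 fell with E9 (median 0.25), among them Il7r, the IL-7 receptor (1.29), Itgae, the integrin CD103 (0.87), Cd27 (0.48) and Cxcr3 (0.47). The one that fell, named outside the rule after its values were seen, was the lymph node homing receptor gene Ccr7 (-0.97; limma adjusted p = 0.00353), and 2 fell with the mean of a gene's probes. At an unadjusted p under 0.05 stood 4 of the 12 with epoxomicin. With epoxomicin 2 rose, Cd27 (0.44) and Cxcr3 (0.43), and neither call was kept with an offset of 16 or when any 1 DMSO or epoxomicin array was left out. Of the 9 CD8 T cell markers 7 rose with E9 (median 0.60), with the adhesion receptor gene Cd2 at 1.63, Cd247 at 0.71, Cd8b1 at 0.64 and Cd3d at 0.60. At an unadjusted p under 0.05, 7 of the 9 were higher with epoxomicin and none lower. The share of all genes at that threshold was not counted here. With epoxomicin 1 rose, Zap70 (0.48), a call also lost with an offset of 16 or when any 1 of those 4 arrays was left out, while 2 rose with no filter or with the mean of a gene's probes.

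Ly6C is also made by monocytes and other cells that a spleen preparation could hold, and in bulk RNA fewer cells of a type and less RNA per cell cannot be told apart. Of 8 monocyte and macrophage markers tested none passed with E9 or epoxomicin (0 and 1 at an unadjusted p under 0.05). Their summed intensity was 294.5 to 294.6 with DMSO, 268.7 to 275.5 with epoxomicin and 310.4 to 320.2 with E9. This sum covers 8 probes, and the mode of the intensities was 30.8 per probe, so it is mostly background. Itgam, Ccr2, Fcgr1 and Cd14 were not above the limit on 2 arrays. Lyz1 and Mpeg1 had the smallest p with E9 (0.16 and 0.12, limma adjusted p = 0.243 and 0.252), and Mpeg1 and Lyz2 with epoxomicin. Mpeg1 was above the limit on both DMSO arrays and on neither epoxomicin array (means 38.1 and 32, limma adjusted p = 0.417), so no fold is given. Lyz2 was below the limit on the DMSO and the epoxomicin arrays. The part of monocytes in the Ly6 values was not tested.

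NK cell markers moved with E9, where 7.59% of all genes rose and 7.66% fell. Of 6 tested 5 rose (median 0.74): the lectin receptor genes Klra7 (1.42), Klre1 (0.98) and Klra9 (0.59), and the transcription factor gene Eomes (0.89), which CD8+ T cells also express, had the smallest adjusted p. The summed intensity was 1032 to 1142 with DMSO, 1326 to 1365 with epoxomicin and 2017 to 2248 with E9. Most of this sum was Eomes, with means of 811.8, 1018.75 and 1528.3, so it is no measure of NK cells alone. Ncr1, a defining marker, was not above the limit on 2 arrays. With epoxomicin none passed (3 at an unadjusted p under 0.05), Klre1 (0.30; limma adjusted p = 0.0855) and Klra7 (0.26; limma adjusted p = 0.124) having the smallest p. The part of NK cells in the Ly6 values was not tested.

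Of 6 neutrophil markers 1 rose with E9, S100a8, at least 1.22-fold, a call lost with the filter on all 6 arrays or without DMSO replicate 1, DMSO replicate 2 or E9 replicate 2, with a summed intensity of 202 to 208.4 with DMSO and 205.1 to 225.2 with E9. S100a8 was above the limit on the E9 arrays alone, so its call sets E9 signal against background readings. S100a9, Ngp, Camp and Retnlg were not above the limit on 2 arrays. The sum covers 6 probes, and the mode of the intensities was 30.8 per probe, so it is mostly background and measures no cell number. Of all genes 7.59% rose with E9. With epoxomicin none passed (0 at an unadjusted p under 0.05), Elane (0.082) and Csf3r (-0.046) having the smallest p. Their part in the Ly6 values was not tested.

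Over all genes 0.717% rose and 0.553% fell with epoxomicin, and 7.59% rose and 7.66% fell with E9. B cell transcripts fell with epoxomicin in 5 of 7 cases, led by Igk-C (-1.69), Cd74 (-0.58), H2-Ab1 (-0.79) and Cd79b (-0.50). The summed intensity of the list was 642.8 to 707 with DMSO and 321.1 to 352.1 with epoxomicin. The count was 0 to 2 without any 1 of those arrays, 0 of them without epoxomicin replicate 2. With E9 2 of 7 fell, H2-Ab1 (-1.01) and Cd79b (-0.65), with a sum of 582.1 to 696.7, and none rose. Igk-C, which fell with epoxomicin, read 199.1 and 229 with DMSO and 241.6 and 377.7 with E9 (0.46; limma adjusted p = 0.0856), and 1 of the 7 rose with no background correction or without E9 replicate 1. In the plasma cell list 1 of 4 rose with E9, Xbp1 (1.11), a factor of the unfolded protein response that T cells express too. None passed with epoxomicin (0 at an unadjusted p under 0.05), Sdc1 (-0.12) and Mzb1 having the smallest p. Mzb1 was below the limit on both epoxomicin arrays (means 35.05 with DMSO and 33.7 with epoxomicin, limma adjusted p = 0.927), so no fold is given. The part of B and plasma cells was not tested.

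Of 4 dendritic cell markers 1 fell with E9, the transcription factor gene Batf3 (-0.81), and 2 fell with no background correction, an offset of 16, the mean of a gene's probes or the trend and robust settings, and without E9 replicate 1. With epoxomicin none passed (1 at an unadjusted p under 0.05), Batf3 (-0.47) and Bst2 (-0.26) having the smallest p, and 1 fell with the 2 groups alone and without E9 replicate 1 or E9 replicate 2. In the list of CD4 and regulatory T cell markers Ctla4 fell with epoxomicin (-0.99), 1 of 4, a call lost without epoxomicin replicate 2. With E9 2 of the 4 fell, Ctla4 (-0.53) and Foxp3 (-0.24), and 1 with no background correction, an offset of 16, the mean of a gene's probes, the trend and robust settings or the 2 groups alone, and without any 1 array other than E9 replicate 1. None of 3 erythroid and platelet markers passed in either comparison (1 at an unadjusted p under 0.05 with epoxomicin, 0 with E9). Pf4 differed by -0.13 with E9. Itga2b was above the limit on both epoxomicin arrays and on neither DMSO array (means 39.2 and 32.55, limma adjusted p = 0.416), so no fold is given. Beside these counts, 7.66% of all genes fell with E9 and 0.553% with epoxomicin. The part of the cells of these lists in the Ly6 values was not tested.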

How the data were processed

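Per the labels' protocols, total RNA was extracted with Trizol and labelled with streptavidin-Cy3 for Illumina bead arrays. The authors deposited each probe's intensity as a linear value, and the sorted values were identical in all 6 columns, so it had been quantile-normalized. The scanner software and background handling are not given in the sources used here. A further table of 6 value columns was not used, since its column names match no sample label.

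Probes were named from the array annotation: 35784 of 45281 had 1 symbol, 0 several and 9497 none, and 31257 were updated through RefSeq. The detection limit was the mode of the intensities (30.8) plus the one-sided 0.05 normal quantile times the SD of the values below it (2.36), or 34.6. Probes above it on at least 2 arrays were kept: 24263, of which 20147 were named, for 13393 genes with the brightest probe each. Intensities were corrected with normexp (offset 50), which shrinks differences of dim genes, and log2-transformed. One limma model of the 3 groups (3 residual and 6.34 prior degrees of freedom) was fitted to genes and again to probes, with Benjamini-Hochberg adjustment over all of them; "rose" and "fell" mean an adjusted p under 0.05. Bounds compare intensities with the lowest signal above the limit, hold no estimate of the spread and are given only for genes that passed.

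Named genes were the members and their probes, the 3 most alike genes per member, every tested gene of the Ly6/uPAR list, and from each other list up to 4 that passed, or 2 with the smallest p where none did; clone names were left out, and direct comparisons of E9 with epoxomicin are given for the members only. The chromosomal neighbours were added after seeing the data. The members and lists were chosen with earlier results of these data known. Lists are described by counts and medians with no set test. Counts at an unadjusted p under 0.05 stand without the share of all genes at that threshold, so they are no measure of a shift. Bst2 is in 3 lists, Thy1 and Cd14 in 2 each. No source says that the arrays of a group came from separate animals beyond calling them biological duplicates, so p-values measure the spread between these arrays, and their number limits the precision. The fitting code was tested on simulated data. The fits used limma 3.58.1 (R 4.3.3); figures and alignments used matplotlib 3.10.9 and biopython 1.88 (Python 3.11.15). Alternatives are given in the closing section.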

Additional observations from a re-analysis of the deposited data

How the results depend on the processing

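Alternatives were no background correction, an offset of 16, no filter or a filter on all 6 arrays, the mean of a gene's probes, eBayes with trend and robust settings, a replicate block, the 2 compared groups alone, and leaving out each array. Ly6c1 and Ly6e did not pass with epoxomicin under any of them, with adjusted p from 0.347 to 0.983. Apart from leaving out arrays, Ly6c1 ranged from 2.52 to 2.59 for E9 against DMSO and Ly6e from 1.47 to 1.55. Without single arrays, Ly6c1 ranged from 2.43 to 2.61 and Ly6e from 1.36 to 1.57 for E9, and for epoxomicin Ly6c1 from 0.10 to 0.28 and Ly6e from -0.026 to 0.18, the negative value (without DMSO replicate 2) also for its brighter probe; the cause was not tested. The number of genes that passed with epoxomicin was 170, 90 with the replicate block and 1 to 237 without single arrays. For E9 against DMSO it was 2042 (1218 to 1870 without single arrays) and for E9 against epoxomicin 1704 (939 to 1601); fits without an array have a group of 1, assumed to vary like the others. Same-numbered arrays are not said to be paired, and their deviations correlated with r of 0.22 (DMSO and epoxomicin), -0.32 (DMSO and E9) and -0.20 (epoxomicin and E9) across genes; the block changed no call of a member, but left 0 of the interferon-response (Irgm2) and memory marker (Cd27, Cxcr3) calls with epoxomicin and 1 of the 2 CD4 and regulatory T cell calls with E9. For epoxomicin against DMSO, 6 list counts were above 0, and of their 84 values under alternatives 30 were lower by over 1.5 times and 2 higher; for E9 against DMSO, 14 were above 0, and of 196 values 20 were lower and 7 higher. Signals near the limit of 34.6, as for most of the Ly6/uPAR family, limit what can be seen there.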
